A study of Mus musculus with 12 samples.

Results

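The Runx and Ikaros genes encode transcription factors that act throughout blood cell formation. They are taken here as 9 genes chosen by name, namely Runx1, Runx2, Runx3, Cbfb, Ikzf1, Ikzf2, Ikzf3, Ikzf4 and Ikzf5. The rule used no measured values, but earlier results of these data were known when the genes were chosen. Of these, 8 had a probe set with exactly 1 gene symbol, among 22184 such genes on the array. Runx2, which is best known as the master regulator of bone formation, was not analysed here.

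RNA of dendritic cells (DCs) and their bone marrow progenitors was hybridised to 12 arrays, and every value below is a log2 expression value as deposited. All animals were C57Bl/6 mice at steady state that carried 1 GFP reporter allele at Zbtb46, a gene active in conventional DCs and their committed progenitors (Zbtb46GFP/+; labelled N8 in every group), and no other allele is named. The bone marrow populations were the common DC progenitor (CDP, 3 arrays; lineage-negative, CD117 intermediate, CD135+, CD115+, CD11c-, MHC II-), the pre-CD8 DC (2 arrays; CD117 intermediate, CD135+, Siglec H-, CD11c+, MHC II intermediate) and the pre-CD4 DC (2 arrays; CD117 low, CD135+, CD115+, CD11c+, MHC II-). The mature populations were the CD24 DC (3 arrays; CD11c+, CD24+, CD172a-, and MHC II- as the label has it) and the CD172a DC (2 arrays; CD11c+, MHC II+, CD172a+). The mature populations were spleen DCs, so comparisons of mature with bone marrow populations differ in tissue as well as in stage. The part of the tissue was not tested. Cells were taken from 8 to 10 littermates, age is not stated, and the labels do not say whether each array was a separate pool.

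Runx proteins bind DNA through the Runt domain as partners of Cbfb, which does not touch DNA itself but raises the affinity of the complex. Runx1 is needed for the emergence of blood stem cells and for many later steps, and Runx3 shapes cytotoxic T cells and, in the mouse, DC subsets of skin and spleen. Ikaros proteins bind DNA through zinc fingers at one end and pair with each other through zinc fingers at the other, and they recruit the NuRD chromatin remodelling complex. Ikaros itself (Ikzf1) is required for lymphoid cells and for several DC types in the mouse.

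The labels of the populations were set against marker genes first. The mean log2 level of 8 markers of the cDC1 lineage was 9.63 to 10.06 on CD24 DC arrays and 6.73 to 7.01 on CD172a DC arrays. The mean of 7 markers of the cDC2 lineage was 5.21 to 5.33 on CD24 DC arrays and 7.42 to 7.85 on CD172a DC arrays. In the marrow, the cDC1 markers averaged 7.46 to 8.38 on pre-CD8 arrays and 5.31 to 5.36 on pre-CD4 arrays. The cDC2 markers separated the marrow populations less, at 5.72 to 6.15 on pre-CD4, 5.26 to 5.67 on pre-CD8 and 5.32 to 5.57 on CDP arrays. The 7 progenitor markers averaged 10.09 to 10.27 on CDP arrays and at most 8.15 on every other array. The cDC2 list holds Sirpa, which encodes CD172a, and the progenitor list holds Kit, which encodes CD117. Both proteins were used in the sort, so these means are in part set by it. Neutrophil markers varied within groups (mean 4.81 to 7.12 on CD24 DC arrays, 4.70 to 7.10 on CD172a DC arrays, 6.02 to 9.32 on pre-CD8 arrays, 5.97 to 6.80 on pre-CD4 arrays and 5.54 to 7.65 on CDP arrays). Arrays of the same group correlated at 0.925 to 0.987 over all 35145 probe sets and arrays of different groups at 0.858 to 0.976. Differences were tested with limma over the 22184 genes, and a difference is called where its Benjamini-Hochberg adjusted p is under 0.05.

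Across the 5 populations the genes fell into different patterns. Runx1 was high in CDPs and pre-CD4 cells and lower in the other 3 populations. By group mean, Runx3 and Ikzf3 were highest in CD172a DCs, Cbfb and Ikzf5 were lowest there, and Ikzf2 was highest in CDPs. Among these extremes, only that of Runx3 differed by the test from the population next in order. Ikzf1 and Ikzf4 gave no called difference in any of the 10 pairwise comparisons. Because sorted cells were measured in bulk, fewer expressing cells and less RNA per cell cannot be told apart in any of these results.

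**Figure D1:**
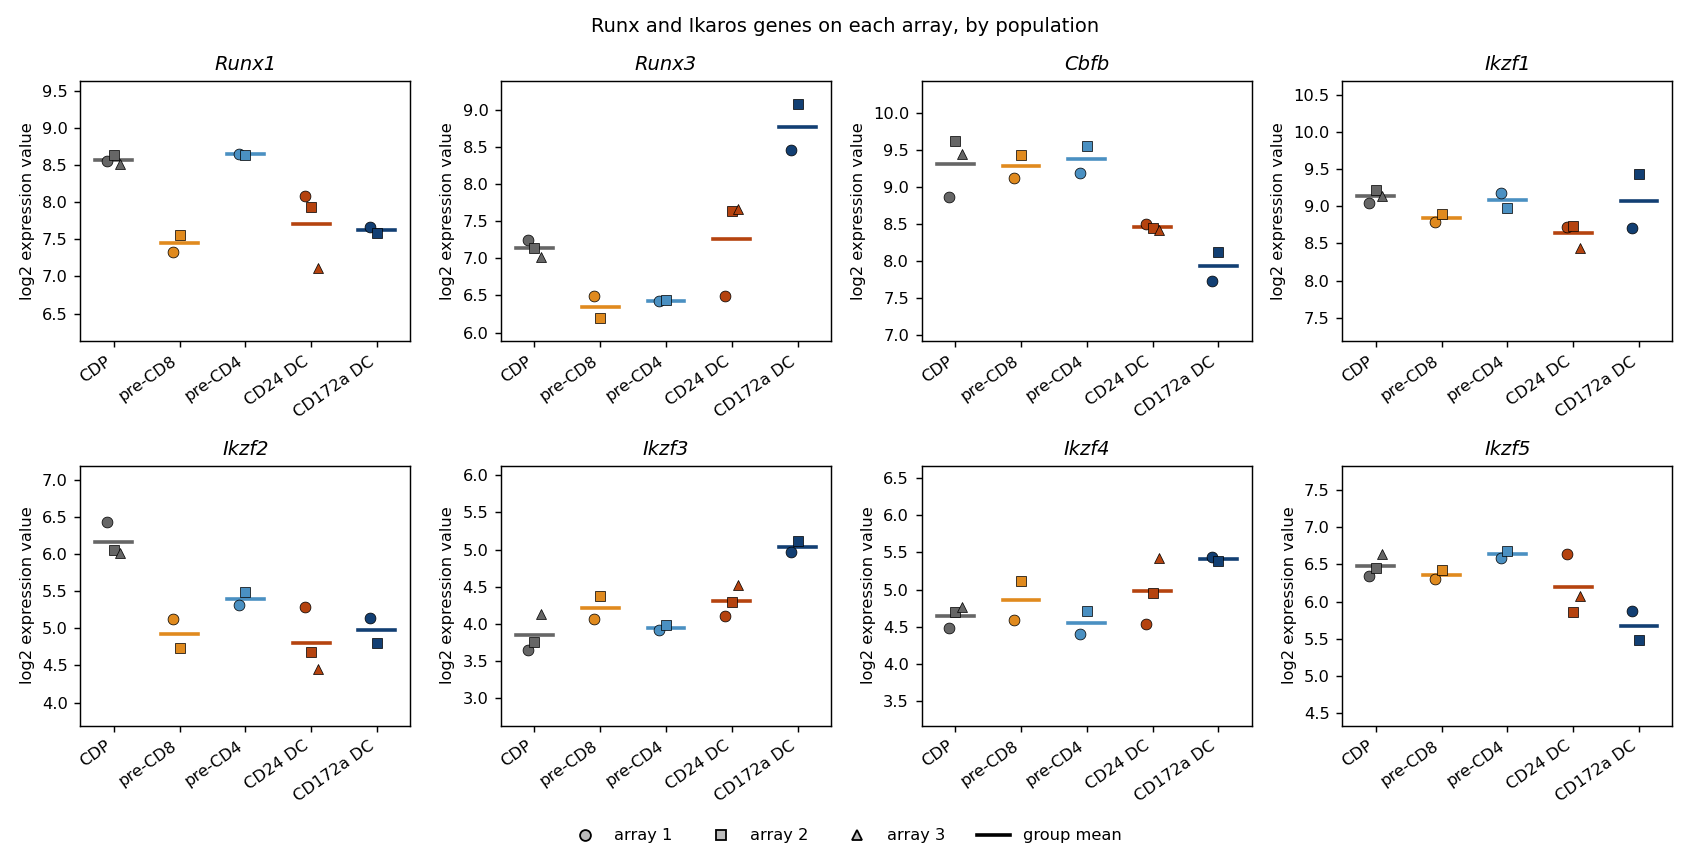
Log2 expression value of each measured Runx and Ikaros gene on each of the 12 arrays (points; the symbol gives the array number) with the mean of each population (line), 1 panel per gene, with CDPs, pre-CD8 and pre-CD4 cells, CD24 DCs and CD172a DCs from left to right. Both CD172a DC arrays lie above every other array for Runx3 (8.45 and 9.07) and for Ikzf3 (4.96 and 5.11).

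Runx1 (probe set 17332236), the factor needed for blood stem cell emergence, read 8.56, 8.64 and 8.51 on CDP arrays, 7.33 and 7.56 on pre-CD8 arrays and 8.65 and 8.64 on pre-CD4 arrays. On the mature arrays it read 8.08, 7.94 and 7.11 in CD24 DCs and 7.67 and 7.58 in CD172a DCs. CDPs and pre-CD4 cells thus lay above every array of the other populations, and the third CD24 DC array lay well below the other two of its group. The mean of 9 monocyte or macrophage markers was also highest in those populations, at 7.56 to 7.93 on CDP arrays and 7.76 to 7.90 on pre-CD4 arrays, against 6.95 to 7.36 on pre-CD8 arrays, 6.31 to 6.49 on CD24 DC arrays and 7.06 to 7.07 on CD172a DC arrays. That list holds Csf1r, which encodes the CD115 used to sort CDPs and pre-CD4 cells. The mean of 9 pDC markers was 6.94 to 7.18 on pre-CD4 arrays and at most 5.88 on every other array. The part of such cells in the Runx1 differences was not tested.

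In the pre-CD8 branch, Runx1 was lower than in CDPs by the first progenitor step. It averaged 7.45 ± 0.17 in pre-CD8 cells (SD, n = 2) and 8.57 ± 0.06 in CDPs (SD, n = 3), a difference of -1.12 ± 0.26 (SE; adjusted p 0.0215), or 0.459 of the CDP level. This call was lost without any 1 of the 3 CDP arrays or the 2 pre-CD8 arrays, with adjusted p 0.0603 to 0.177. In pre-CD4 cells the mean was 8.64 ± 0.01 (SD, n = 2), 0.07 ± 0.26 above CDPs (SE; adjusted p 0.958; 95% interval -0.48 to 0.63).

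Between the progenitors, Runx1 was 1.20 lower on the log2 scale in pre-CD8 than in pre-CD4 cells. This difference of -1.20 ± 0.28 (SE) did not pass the test (adjusted p 0.0907, 95% interval -1.80 to -0.60). The 2 groups did not overlap, but neither did they for Ikzf1, Ikzf2, Ikzf3 and Ikzf5, which were not called either. With 2 arrays per group, a lack of overlap is no test. With the replicate number as a block the Runx1 difference had an adjusted p of 0.0414, without the third CD24 DC array 0.00768 and without the first 0.0472. The CD24 DC arrays enter only through the shared spread.

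Mature cells of both lineages had less Runx1 than CDPs. The difference was -0.86 ± 0.23 in CD24 DCs (SE; adjusted p 0.0159) and -0.94 ± 0.26 in CD172a DCs (adjusted p 0.0164), both against the same 3 CDP arrays. The call in CD24 DCs was lost without the second CDP array (adjusted p 0.0547), and that in CD172a DCs without either of their arrays (0.0795 and 0.0927) and under quantile normalization (0.0565). In CD172a DCs against pre-CD4 cells the difference was -1.02 ± 0.28 (adjusted p 0.0287), a call lost without any 1 of the 4 arrays compared (0.0998 to 0.148) and under quantile normalization (0.0587), while CD24 DCs were 0.27 ± 0.26 above pre-CD8 cells (adjusted p 0.659). The difference between the lineages in this step was 1.29 ± 0.38 and was not called (adjusted p 0.166), but it was 1.59 with an adjusted p of 0.0121 without the third CD24 DC array. CD24 DCs differed from pre-CD4 cells by -0.93 ± 0.26 (adjusted p 0.0298; 0.0520 with the replicate block, where the difference was -0.77, and 0.129 or more without either pre-CD4 array or with only the 2 groups fitted). The order of group means was pre-CD4, CDP, CD24 DC, CD172a DC and pre-CD8, in which CDPs and CD24 DCs were the only neighbours that differed by the test.

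Runx3 (probe set 17419840), the family member with known roles in cytotoxic T cells and DCs, had the widest span of the 8 genes. It read 7.25, 7.14 and 7.02 on CDP arrays, 6.49 and 6.20 on pre-CD8 arrays and 6.42 and 6.44 on pre-CD4 arrays. It read 6.49, 7.63 and 7.66 in CD24 DCs, and 8.45 and 9.07 in CD172a DCs. Both CD172a DC arrays exceeded all others, and the first CD24 DC array stood with the progenitors rather than with the other two of its group.

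Runx3 averaged 8.76 ± 0.44 in CD172a DCs (SD, n = 2), against 7.26 ± 0.67 in CD24 DCs (SD, n = 3), 6.43 ± 0.01 in pre-CD4 cells (n = 2), 6.35 ± 0.21 in pre-CD8 cells (n = 2) and 7.14 ± 0.12 in CDPs (n = 3). It rose 5.03-fold in CD172a DCs over pre-CD4 cells, by 2.33 ± 0.35 on the log2 scale (SE; adjusted p 0.000616). Over pre-CD8 cells the difference was 2.41 ± 0.35 (adjusted p 0.000650) and over CDPs 1.62 ± 0.32 (adjusted p 0.00228), a 3.07-fold rise. These 3 calls held under all 18 alternative settings.

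CD24 DCs had less Runx3 than CD172a DCs, by -1.50 ± 0.32 (SE; adjusted p 0.0127), or 0.354 of the CD172a level. That call was lost without the second CD172a DC array, when the difference was -1.19 (adjusted p 0.150), and when only the 2 groups entered the fit (adjusted p 0.0671). CD24 DCs were 0.91 ± 0.32 above pre-CD8 cells, which was not called (adjusted p 0.128), and 0.83 ± 0.32 above pre-CD4 cells (adjusted p 0.124). Without the first CD24 DC array these differences were 1.30 (adjusted p 0.00294) and 1.22 (adjusted p 0.00291).

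Both progenitors had lower Runx3 values than CDPs on every array, without a call. The difference was -0.79 ± 0.32 in pre-CD8 cells (SE; adjusted p 0.225) and -0.71 ± 0.32 in pre-CD4 cells (adjusted p 0.307). The first of these passed without the first CD24 DC array (adjusted p 0.0440) and the second when only pre-CD4 cells and CDPs were fitted (adjusted p 0.0430). In the order of group means, CD172a DC, CD24 DC, CDP, pre-CD4 and pre-CD8, only CD172a and CD24 DCs were neighbours that differed by the test.

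Runx genes are transcribed from a distal and a proximal promoter, and the distal one is known for a conserved pair of Runx sites near the start. The array gave 1 value per gene and did not separate the promoters, so the sequences are shown as context for genes whose products recognise them. RefSeq promoters (assembly GRCm38.p6; 250 bases before to 50 after each listed start) were available for 6 of the 9 genes, 9 promoters in all. The motif AACCACA was searched on both strands, with overlaps allowed, and was found in 1731 of 32851 promoters (5.27%). Printed first are 30 bases round the stretch of the Runx1 promoter that holds 2 copies of it 1 base apart, and round the same stretch in Runx2 and Runx3, on the strand of the gene, with AACCACAGAACCACA in capitals.
Runx1, chr16:92826025-92826054, minus strand: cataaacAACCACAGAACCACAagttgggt
Runx2, chr17:44814583-44814612, minus strand: cacaaacAACCACAGAACCACAagtgcggt
Runx3, chr4:135120503-135120532, plus strand: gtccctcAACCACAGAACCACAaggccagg

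The tandem form was read from the Runx1 promoter, so its match there was fixed in advance. Pairs with another base between the copies were not counted. In this exact form it was present in 4 of the 32851 promoters (0.0122%). These were the first listed promoters of Runx1, Runx2 and Runx3, and that of Gm16225, which lies on the opposite strand over the same stretch as Runx3. Counted from the listed start, it lay at 28 to 42 in Runx1, 23 to 37 in Runx2 and -135 to -121 in Runx3. The 250 bases before the first Runx3 start follow because Runx3 had the largest span of all members, with each AACCACA in capitals.
Runx3, chr4:135120395-135120644, plus strand: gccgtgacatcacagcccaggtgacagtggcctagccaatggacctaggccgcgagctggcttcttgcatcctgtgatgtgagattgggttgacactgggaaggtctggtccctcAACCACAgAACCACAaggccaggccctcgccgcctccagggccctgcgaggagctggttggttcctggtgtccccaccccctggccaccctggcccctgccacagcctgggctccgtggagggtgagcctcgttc

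The second listed promoters of Runx1 and Runx3 differed in composition from the first and held 0 copies of AACCACA. The GC content was 69.0% in the second and 45.0% in the first Runx1 promoter, with 35 and 2 CpG dinucleotides. For Runx3 it was 77.3% in the second and 63.7% in the first, with 45 and 8 CpG dinucleotides. The single promoters of Cbfb and Ikzf5 and both of Ikzf1 also held 0 copies of AACCACA. The Ikaros core TGGGAA, searched on both strands and found in 25.6% of all promoters, was present in the first Runx3 promoter at -154 and in none of the members' other 8 promoters.

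Cbfb (probe set 17504649), the shared partner of all Runx proteins, was lower in mature DCs. It read 8.87, 9.62 and 9.44 in CDPs, 9.12 and 9.43 in pre-CD8 cells and 9.19 and 9.55 in pre-CD4 cells. In CD24 DCs it read 8.50, 8.45 and 8.42, and in CD172a DCs 7.73 and 8.13. Each mature array lay below each bone marrow array, and both CD172a arrays lay below all CD24 arrays.

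Cbfb fell by 1.37 ± 0.24 in CD172a DCs (SE; adjusted p 0.00112), to 0.386 of the CDP level, and by 0.85 ± 0.22 in CD24 DCs (adjusted p 0.0127). Against pre-CD4 cells the difference was -1.44 ± 0.27 in CD172a DCs (adjusted p 0.00287) and -0.91 ± 0.24 in CD24 DCs (adjusted p 0.0258). Against pre-CD8 cells it was -1.34 ± 0.27 in CD172a DCs (adjusted p 0.00584) and -0.82 ± 0.24 in CD24 DCs, which was not called (adjusted p 0.0695; 0.0387 with the replicate block). CDPs, pre-CD8 and pre-CD4 cells lay within 0.10 of each other, with adjusted p of 0.963 or more. CD24 and CD172a DCs differed by 0.52 ± 0.24, without a call (adjusted p 0.317). The calls of CD172a DCs against CDPs and against pre-CD4 cells held under all 18 alternatives, while that of CD24 DCs against CDPs was lost without the second CDP array (adjusted p 0.0658) or the third (0.0568). That of CD24 DCs against pre-CD4 cells was lost without the second CD24 DC array, the third, or either pre-CD4 array (0.0600 to 0.202), and with only the 2 groups fitted (0.0510), and that of CD172a DCs against pre-CD8 cells without the first CD172a DC array (0.0757). CD172a DCs thus combined the highest Runx3 and the lowest Cbfb values.

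Ikzf1 (Ikaros; probe set 17247336) had the most even level of the 8 genes. It ran between 9.04 and 9.22 in CDPs, stood at 8.79 and 8.90 in pre-CD8 cells and at 9.18 and 8.98 in pre-CD4 cells, ran between 8.44 and 8.74 in CD24 DCs and stood at 8.71 and 9.43 in CD172a DCs. Its group means spanned 0.50, or 1.42-fold. The widest difference, -0.50 ± 0.20 in CD24 DCs against CDPs (SE), was not called (adjusted p 0.0958; 95% interval -0.93 to -0.07).

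Ikzf2 (Helios; probe set 17223985), known from stem cells and regulatory T cells, was lower in mature DCs than in CDPs. It read 6.43, 6.06 and 6.01 in CDPs, 5.12 and 4.73 in pre-CD8 cells and 5.31 and 5.49 in pre-CD4 cells. It read 5.29, 4.68 and 4.45 in CD24 DCs and 5.14 and 4.80 in CD172a DCs. Every CDP array lay above every other array. The values lay below the median of their own array on 5 of the 12 arrays, all of them outside CDPs.

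The Ikzf2 difference from CDPs was -1.36 ± 0.23 in CD24 DCs (SE; adjusted p 0.000792; 0.390 of the CDP level) and -1.20 ± 0.26 in CD172a DCs (adjusted p 0.00444). It was -1.24 ± 0.26 in pre-CD8 cells (adjusted p 0.0131) and -0.77 ± 0.26 in pre-CD4 cells, which was not called (adjusted p 0.134; 0.0325 with the replicate block, where the difference was -0.90). Between pre-CD8 and pre-CD4 cells the difference was -0.47 ± 0.28 (95% interval -1.08 to 0.14). The call in CD24 DCs held under all 18 alternatives. The call in pre-CD8 cells was lost without the first CDP array (adjusted p 0.0571) or the second pre-CD8 array (0.155), and the call in CD172a DCs without their second array (0.0561).

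Ikzf3 (Aiolos; probe set 17268820), a factor best known from B and T cells, was highest in CD172a DCs at a low signal. It read 3.65, 3.75 and 4.13 in CDPs, 4.06 and 4.37 in pre-CD8 cells and 3.91 and 3.98 in pre-CD4 cells. It read 4.10, 4.30 and 4.52 in CD24 DCs and 4.96 and 5.11 in CD172a DCs. All 12 values lay below the median of their own array, and the background level is not known from the deposited values.

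Ikzf3 was 1.20 ± 0.21 higher in CD172a DCs than in CDPs (SE; adjusted p 0.00114), a 2.29-fold difference that held in all 17 alternatives that kept the gene. Over pre-CD4 cells it was 1.09 ± 0.23 (adjusted p 0.00700; 0.0503 without the second CD172a DC array and 0.0638 without the first pre-CD4 array) and over pre-CD8 cells 0.83 ± 0.23 (adjusted p 0.0408), a call kept in only 7 of 17 alternatives. CD24 DCs differed from CD172a DCs by -0.73 ± 0.21, which was not called (adjusted p 0.0663). It passed without the third CD24 DC array (-0.84, adjusted p 0.0394) and with the replicate block (-0.86, adjusted p 0.0157), although the numbers showed no pairing of CD172a DC arrays. CD24 DCs were 0.47 ± 0.19 above CDPs (adjusted p 0.102; 0.0462 with the replicate block).

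Markers of lymphocytes were measured beside these results. The mean of 9 T cell markers was 5.02 to 5.11 on CD172a DC arrays, 4.68 to 5.08 on CD24 DC arrays and 4.67 to 4.82 on CDP arrays. In CD172a DCs against CDPs, 3 of the 9 rose (Cd5 by 1.72, Cd3d by 0.87 and Bcl11b by 0.86) and 0 fell. In CD24 DCs against CDPs, 1 of the 9 rose and 0 fell. Over all genes, 8.68% were higher and 14.2% lower in CD172a DCs, and 8.3% higher and 12.8% lower in CD24 DCs. Of 8 B cell markers, 2 rose in CD172a DCs (Cd22 by 2.66 and Ms4a1 by 2.56) and 0 fell, while in CD24 DCs 2 rose and 1 fell. Their means were 5.50 to 5.65 in CD172a DCs, 5.21 to 5.50 in CD24 DCs and 4.72 to 4.99 in CDPs. The mean of 8 NK cell markers was 5.07 to 5.41 in CD172a DCs, 4.83 to 5.49 in CD24 DCs and 4.72 to 4.84 in CDPs. In each mature population against CDPs, 1 NK cell marker rose and 1 fell. The part of such cells in the Ikzf3 and Runx3 differences was not tested.

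Ikzf4 (Eos; probe set 17246268), a regulatory T cell factor, read 4.48, 4.70 and 4.77 in CDPs, 4.59 and 5.12 in pre-CD8 cells, 4.40 and 4.71 in pre-CD4 cells, 4.54, 4.96 and 5.43 in CD24 DCs, and 5.44 and 5.38 in CD172a DCs. It lay below the array median on 8 of the 12 arrays. CD172a DCs exceeded CDPs by 0.76 ± 0.26 (SE; adjusted p 0.0509) and pre-CD4 cells by 0.85 ± 0.28 (adjusted p 0.0673), neither of which was called. The first of these passed in 9 and the second in 5 of 18 alternatives.

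Ikzf5 (Pegasus; probe set 17497044), the most divergent member of the family, read 6.34, 6.45 and 6.64 in CDPs, 6.30 and 6.42 in pre-CD8 cells, 6.59 and 6.68 in pre-CD4 cells, 6.64, 5.86 and 6.08 in CD24 DCs, and 5.87 and 5.48 in CD172a DCs. Both CD172a arrays lay below all bone marrow arrays. CD24 DCs were 0.52 ± 0.24 (SE) above CD172a DCs, with overlapping arrays and without a call (adjusted p 0.308). The difference of CD172a DCs was -0.80 ± 0.24 against CDPs (SE; adjusted p 0.0269) and -0.96 ± 0.26 against pre-CD4 cells (adjusted p 0.0275). The call against CDPs was lost without the second CD172a DC array (difference -0.60, adjusted p 0.196) or without the second CDP array or the third, and the call against pre-CD4 cells without any 1 of the 4 arrays compared.

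**Figure D2:**
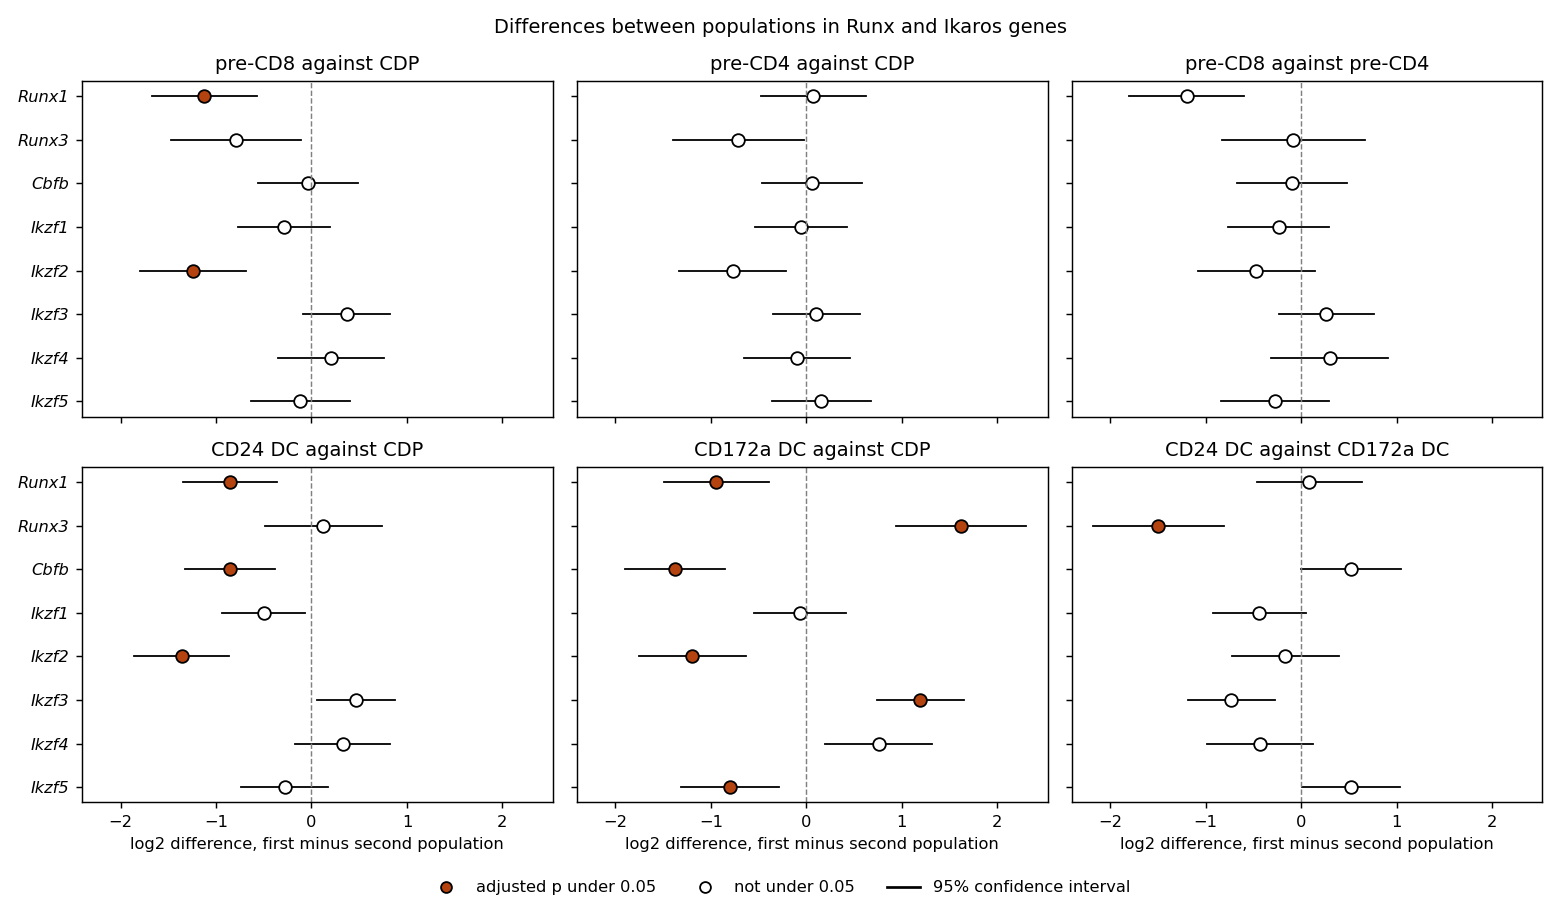
Log2 difference (point) with its 95% confidence interval (line) for each of the 8 genes in 6 comparisons, the first named population minus the second; filled points have an adjusted p under 0.05 over all genes. CD172a DCs against CDPs has the most filled points, 6, and the comparisons of pre-CD4 cells with CDPs and of pre-CD8 with pre-CD4 cells have none.

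By comparison, the members' calls were set against the share of all genes called. In CD172a DCs against CDPs, 2 genes rose and 4 fell of 8, where 22.8% of all genes were called (8.68% higher and 14.2% lower). In CD24 DCs against CDPs, 0 rose and 3 fell, where 21.1% were called (8.3% higher and 12.8% lower). The median difference of the 8 genes was -0.43 and -0.39 in these comparisons, against a median over all genes of 0.13 and 0.12. These comparisons share the CDP arrays and are not independent.

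At the progenitor stage fewer genes were called. In pre-CD8 cells against CDPs 2 of 8 fell, where 4.76% of all genes were called (2.29% higher and 2.47% lower). In pre-CD4 cells against CDPs limma called 0 of 8 (4.54% of all genes, 2.32% higher and 2.23% lower), with 2 at an unadjusted p under 0.05. In pre-CD8 against pre-CD4 cells it called 0 of 8 (0.703% of all genes, 0.383% higher and 0.32% lower), with 1 at an unadjusted p under 0.05, and the replicate block raised each of these counts of 0 to 1.

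Between the mature lineages, 1 of 8 was called in CD24 against CD172a DCs, Runx3, where 5.59% of all genes were (3.21% higher and 2.37% lower). Along the CD172a lineage, CD172a DCs against pre-CD4 cells, 2 rose and 3 fell (12.7% of all genes called, 4.7% higher and 8.02% lower). Along the other lineage, CD24 DCs against pre-CD8 cells, limma called 0 of 8 (6.31% of all genes, 2.65% higher and 3.66% lower), with 2 at an unadjusted p under 0.05 and 1 called with the block. CD24 DCs against pre-CD4 cells gave 2 lower genes (11.4% of all genes, 4.44% higher and 6.94% lower) and CD172a DCs against pre-CD8 cells 2 higher and 1 lower (9.41%, 3.48% higher and 5.94% lower). The contrast between the lineages' maturation steps was called for 0 of 8 genes (1.03% of all genes, 0.5% higher and 0.532% lower), with 4 at an unadjusted p under 0.05. Those were Runx1 (1.29 ± 0.38), Runx3 (-1.42 ± 0.47), Ikzf3 (-0.996 ± 0.315) and Ikzf5 (0.79 ± 0.35, all SE). A difference between the maturation steps of the lineages was thus not shown for these genes.

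**Figure D3:**
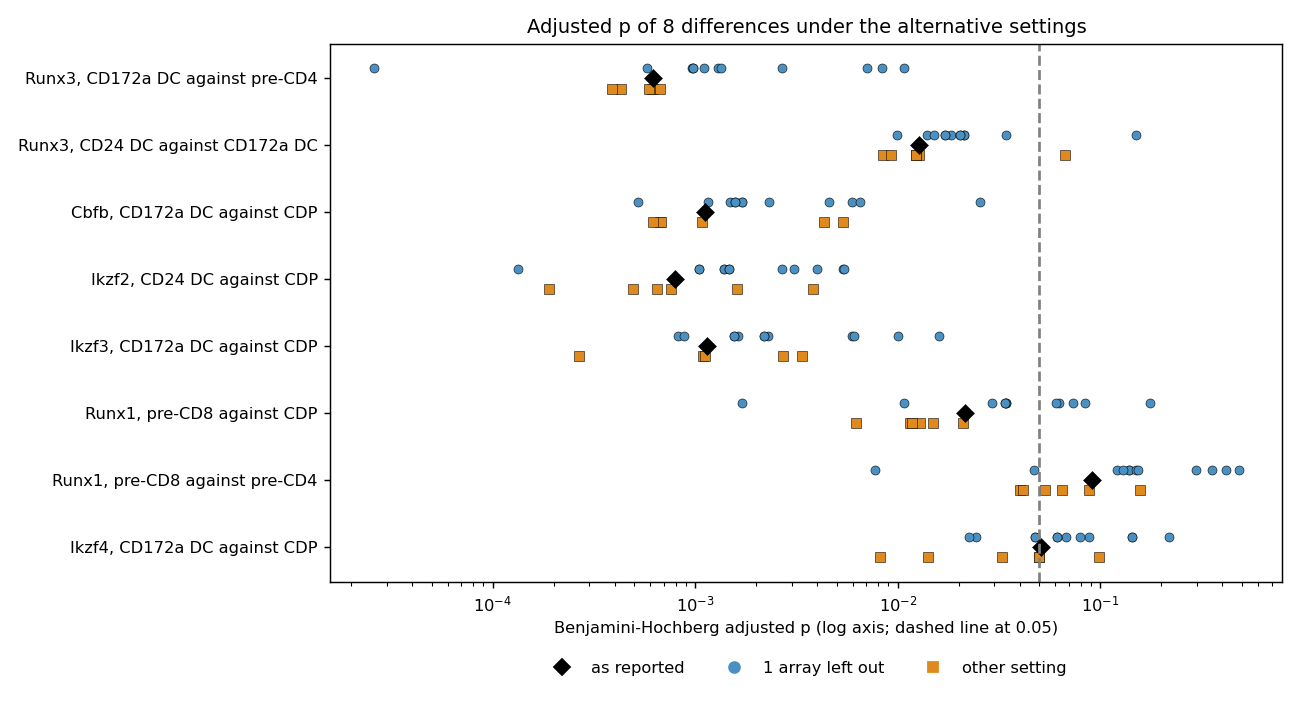
Benjamini-Hochberg adjusted p (log axis) of 8 differences as reported (diamonds), with 1 array left out (circles) and under other settings (squares); the dashed line is at 0.05. All points of Runx3 in CD172a DCs against pre-CD4 cells lie left of the line, while those of Runx1 in pre-CD8 against pre-CD4 cells lie on both sides.

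The genes with the most similar profiles were listed for the 5 members whose group means spanned at least 1 log2 unit 3 genes for each, by Pearson correlation over the 12 arrays among 5165 genes of at least the same span. The arrays share populations, so these correlations describe the profiles and carry no test. Runx3 was closest to Zbtb10 (0.97), Chka (0.96) and Ric1 (0.95), and Cbfb to Rap2c (0.97), Dek (0.97) and Alg8 (0.96). Runx1 was closest to Pip4p2 (0.93), Tex2 (0.88) and Pecam1 (0.88). Ikzf2 was closest to Ift74 (0.95), Gid4 (0.95) and Zfp763 (0.94), and Ikzf3 to Micalcl, Chst10 and Pcp4 (0.95 each).

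Partners of the proteins were read next, from lists by function that were chosen with earlier results of these data known. NuRD, which Ikaros proteins recruit, joins chromatin remodelling to histone deacetylation, and 18 genes of it and of other Ikaros corepressors were measured. In CD24 DCs against CDPs 1 rose and 8 fell, and in CD172a DCs against CDPs 2 rose and 8 fell. Over all genes 8.3% were higher and 12.8% lower in CD24 DCs, and 8.68% higher and 14.2% lower in CD172a DCs. The list had medians of -0.59 and -0.65 beside 0.12 and 0.13 over all genes. With dim genes filtered out, the medians over the remaining genes were -0.05 and -0.06. That filter, which dropped genes under the 40th percentile of mean level, gave 4802 and 5141 called genes, 1750 and 1728 of them higher. Without it, 4690 and 5065 were called. More calls among fewer genes make the called share larger for the remaining genes than over all genes. The shares over all genes thus include many dim genes. The deacetylase Hdac2 differed by -1.21 ± 0.24 in CD24 DCs and -2.005 ± 0.273 in CD172a DCs (SE), and the histone-binding subunit Rbbp4 by -1.11 ± 0.22 and -1.27 ± 0.24. Hdac1 fell by 1.44 ± 0.25 in CD172a DCs.

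Some subunits ran the other way. Chd3, one of the alternative remodelling ATPases, rose by 0.60 ± 0.16 in CD24 DCs and 1.17 ± 0.18 in CD172a DCs, and Mta3 rose by 1.40 ± 0.23 in CD172a DCs. Between CD24 and CD172a DCs, Rbbp7 was higher (0.80) and Mta3 lower (-0.99) in CD24 DCs. In pre-CD8 and pre-CD4 cells against CDPs limma called 0 of the 18, with 5 and 6 at an unadjusted p under 0.05. Over all genes, 4.76% and 4.54% were called.

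Cereblon is the substrate receptor of a ubiquitin ligase through which thalidomide-like drugs degrade Ikaros and Aiolos in human cells. Of its 4 measured subunits, 3 fell in both mature populations against CDPs, where 12.8% of all genes were lower in CD24 DCs and 14.2% in CD172a DCs. The gene of cereblon itself, Crbn, was not called, with differences from CDPs of -0.43 ± 0.17 in CD24 DCs (SE; adjusted p 0.0868) and -0.16 ± 0.19 in CD172a DCs (adjusted p 0.550). The differences in CD24 and CD172a DCs were -1.63 and -1.40 for Cul4b, -1.09 and -1.76 for Ddb1 and -0.90 and -0.73 for Cul4a. Ddb1 was also lower in pre-CD8 cells (-0.82) and pre-CD4 cells (-0.90).

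**Figure D4:**
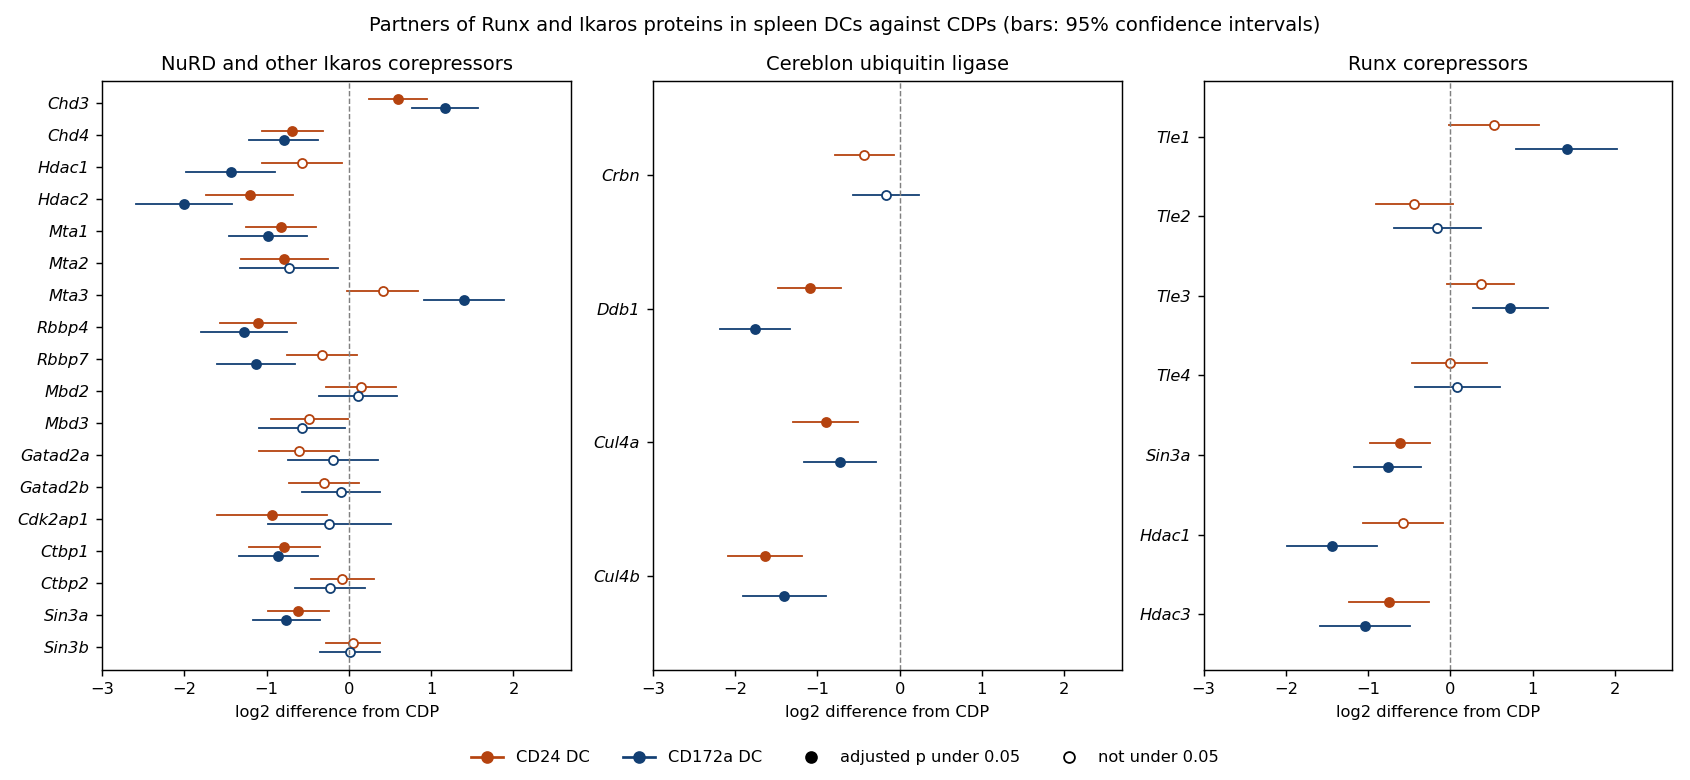
Log2 difference from CDPs (point) with its 95% confidence interval (line) for partner genes in CD24 DCs and CD172a DCs, in 3 panels by list; filled points have an adjusted p under 0.05. Most filled points lie left of 0, with Chd3, Mta3, Tle1 and Tle3 to the right of it.

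Runx proteins can repress through Groucho (Tle) proteins and histone deacetylases, and 7 genes of that list were measured, of which Hdac1 and Sin3a also stand in the list above. In pre-CD4 cells against CDPs Tle1 rose by 1.67 ± 0.28 (SE; adjusted p 0.00401) and Tle3 by 0.88 ± 0.21 (adjusted p 0.0321), and 0 fell. Over all genes, 2.32% were higher and 2.23% lower in pre-CD4 cells. In CD172a DCs Tle1 rose by 1.41 ± 0.28 and Tle3 by 0.73 ± 0.21, while Hdac1, Hdac3 and Sin3a fell, beside 8.68% of all genes higher and 14.2% lower. In CD24 DCs, where 8.3% of all genes were higher and 12.8% lower, 0 rose and 2 fell, Hdac3 by 0.75 and Sin3a by 0.61. Of 7 coactivators, the arginine methyltransferase Prmt1 alone was called in either mature population against CDPs, by -1.01 in CD24 DCs and -1.70 in CD172a DCs.

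Genes known to be regulated by Runx factors in blood cells moved in both directions, and several are themselves lineage markers or sort markers. Of 15 measured, 6 rose and 4 fell in CD24 DCs against CDPs, and likewise 6 and 4 in CD172a DCs. Of all genes, 21.1% were called in CD24 DCs (8.3% higher and 12.8% lower) and 22.8% in CD172a DCs (8.68% higher and 14.2% lower). Cd8a rose by 5.92 in CD24 DCs and 2.09 in CD172a DCs, and Ccr7, the receptor that guides DCs to lymph nodes, by 3.36 and 2.98. The granule enzyme gene Mpo fell by 6.54 and 6.17. In CD24 against CD172a DCs, 4 were higher, led by Cd8a (3.83), the integrin gene Itgae (3.09) and Flt3 (0.86), and 2 were lower, Csf1r (-2.43) and Cd4 (-1.73). Over all genes, 3.21% were higher and 2.37% lower in that comparison. Flt3 and Csf1r encode CD135 and CD115, which were used to sort the progenitors.

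Of 10 measured genes regulated by Ikaros factors, 2 rose and 3 fell in each mature population against CDPs, beside 8.3% of all genes higher and 12.8% lower in CD24 DCs and 8.68% higher and 14.2% lower in CD172a DCs. Dntt, the lymphoid DNA polymerase, was lower in all 4 populations, by -3.84 in pre-CD8 cells, -4.64 in pre-CD4 cells, -4.69 in CD24 DCs and -5.00 in CD172a DCs. Hes1, a Notch target, rose by 1.88 in CD24 DCs and 2.08 in CD172a DCs. Myc fell by 2.21 in CD24 DCs and 0.996 in CD172a DCs, and Rag2 by 1.15 and 1.46. Of 12 partner transcription factors of blood cells, 0 rose in either mature population against CDPs, while 6 fell in CD24 DCs and 5 in CD172a DCs, where 12.8% and 14.2% of all genes were lower. Myb, a progenitor factor, differed by -3.56 and -4.83, and Erg by -3.56 and -3.26, and both also fell in pre-CD8 cells (Myb -2.53, Erg -3.06) and in pre-CD4 cells (Myb -1.66, Erg -3.35). In CD24 and CD172a DCs against CDPs, the median differences were -0.44 and -0.16 for the Runx corepressors, 0.11 and 0.13 for the coactivators, 0.59 and 0.35 for the genes regulated by Runx factors, 0.14 and 0.04 for those regulated by Ikaros factors and -0.55 and -0.45 for the partner transcription factors, beside 0.12 and 0.13 over all genes. The cereblon ligase had medians of -0.997 and -1.06. With dim genes filtered out, the medians over the remaining genes were -0.05 and -0.06.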

How the data were processed

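The authors deposited log2 values of 35145 probe sets for each of 12 Affymetrix arrays, 1 column of values per array. Amplification was by NuGEN Ovation Pico WTA with biotin labelling, per the labels' protocols. How the authors corrected, summarized and normalized the signals, and on which build, is not given in the sources used here. The deposited values (0.84 to 13.09) were not rescaled, with array means of 5.28 to 5.34 and medians of 4.89 to 5.24. Precision is limited by the number of arrays. The platform annotation gave 1 symbol to 23525 probe sets and several to 1810, and did not list 9810; per gene the probe set with the highest mean was kept (22184 genes). Groups follow the sample titles. limma 3.58.1 in R 4.3.3 (lmFit, eBayes) fitted all 12 arrays with 5 group means (residual degrees of freedom 7, prior 6.18), two-sided, with Benjamini-Hochberg adjustment; the code was tested on simulated data. P-values measure the spread between arrays, which may be technical. All 9 members are named whatever they show. In the lists, at most 3 called genes per direction and comparison with the largest difference are named. Similar genes are the 3 with the highest correlation. Members and lists were chosen with earlier results of these data known.

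Replicate numbers come from the titles, which do not say what they mark. Deviations of same-numbered arrays from their group means correlated at 0.10 to 0.42 over 13 pairs of arrays outside CD172a DCs. Differently numbered arrays there correlated at -0.42 to 0.36 over 24 pairs. The third CD24 DC array correlated at 0.36, 0.28 and 0.25 with the second pre-CD8, CDP and pre-CD4 arrays, and at 0.11 with the third CDP array. The second CD24 DC array correlated with the same second arrays at 0.10, 0.11 and 0.16. The pairing of the CD24 DC arrays by number is therefore uncertain. In groups of 2 arrays the deviations mirror each other, so the pairs are not independent. Same-numbered pairs with CD172a DCs correlated at -0.16 to 0.02 over 8 pairs. The numbers were read as a possible pairing of the other 4 groups only, which the labels do not state. A fit with the number as a block is given where it changes a call. Alternatives were quantile normalization, this block, leaving out each array, a filter on dim genes (40th percentile), the mean of all probe sets, trended and robust shrinkage, and only the groups compared.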

Additional observations from a re-analysis of the deposited data

How the results depend on the processing

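No called difference changed direction in any alternative. With each array left out in turn, the number of the 8 genes called ran from 0 to 3 in pre-CD8 cells against CDPs (2 with all arrays), 1 to 3 in CD24 DCs against CDPs (3), 3 to 7 in CD172a DCs against CDPs (6), 0 to 1 in pre-CD8 against pre-CD4 cells (0), 0 to 2 in CD24 against CD172a DCs (1), 0 to 1 in CD24 DCs against pre-CD8 cells (0), 2 to 6 in CD172a DCs against pre-CD4 cells (5), 0 to 4 in CD24 DCs against pre-CD4 cells (2), 1 to 3 in CD172a DCs against pre-CD8 cells (3) and 0 to 1 for the contrast between lineages (0). It stayed at 0 in pre-CD4 cells against CDPs. With the replicate block, the count was 1 in pre-CD4 cells against CDPs, 1 in pre-CD8 against pre-CD4 cells, 2 in CD24 against CD172a DCs, 1 in CD24 DCs against pre-CD8 cells and 1 in CD24 DCs against pre-CD4 cells. The block also brought Ikzf4 past the threshold in CD172a DCs against CDPs (0.90, adjusted p 0.00817) and pre-CD4 cells (0.85, adjusted p 0.0218). It did the same for Ikzf3 in CD24 against CD172a DCs (-0.86, adjusted p 0.0157). In these comparisons the numbers showed no pairing of the CD172a DC arrays. With only the groups compared, the count was 1 in pre-CD4 cells against CDPs, 0 in CD24 against CD172a DCs and 0 in CD24 DCs against pre-CD4 cells. Quantile normalization gave 1 in pre-CD8 against pre-CD4 cells, and the dim filter and the trended fit each gave 1 in CD24 DCs against pre-CD8 cells. Quantile normalization moved the median difference of all genes in CD172a DCs against CDPs to 0.02, against 0.13 as deposited. The cause of these changes was not tested, except that leaving out arrays or groups leaves fewer samples. The dim filter removed Ikzf3. Averaging probe sets could not alter the members' own values, since each has 1 probe set. Detection calls were not used, so signal over background is unknown, which limits Ikzf3, Ikzf4 and Ikzf2 most.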

Other observations

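Profiles of the members over the 12 arrays ran together or opposite in some pairs, described here without a test because the arrays share populations. Ikzf3 and Ikzf4 had the highest correlation of the 28 pairs (Pearson 0.89), and Runx3 and Ikzf5 the lowest (-0.89). Runx3 and Cbfb, whose proteins act as partners, had a correlation of -0.76, and Runx1 and Cbfb one of 0.54. Runx1 and Ikzf2 had a correlation of 0.79.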
